A study of Homo sapiens with 5 samples.

Results

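Of the 33966 peaks that the ATF3 antibody gave in undamaged HCT116 cells, a human colon cancer cell line, 14444 lay far from promoters and were also found after DNA damage. These distal shared sites had their centre more than 2 kb and at most 100 kb from the nearest transcription start site (TSS) of a protein-coding gene and outside the exons of such genes, on chromosomes 1 to 22 and X. They overlapped a peak from damaged cells and no peak from ATF3-knockout cells. ATF3 was precipitated from wild-type cells given the solvent DMSO for 4 h (ATF3-Ctrl), from wild-type cells given 1.5 uM of the topoisomerase I poison camptothecin (CPT) for 4 h (ATF3-CPT), and from DMSO-treated cells of a line made from single clones, in which both ATF3 alleles had been disrupted with AAV vectors (ATF3-KO). The ATF3-KO list, which holds what the antibody brings down without ATF3, had 2231 peaks. The sites were chosen by the peaks of the 3 ATF3 lists, so their presence in both conditions is not a finding. p53 was precipitated from p53-WT cells given CPT (p53-CPT) and from p53-KO cells given DMSO (p53-KO), so that these libraries differ in genotype and in treatment. All chromatin was crosslinked with 1 mM of DSG for 45 min and then with 1% formaldehyde for 10 min. There was 1 library per condition and there were no replicates, so no difference between conditions was tested. Intervals below are 95% intervals that cover counting error only, and tags that were sequenced after PCR are not independent molecules.

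ATF3 is a basic leucine zipper (bZIP) protein that is made in larger amounts when cells are stressed. bZIP proteins bind DNA as pairs, and the partner sets the sequence that is read: pairs with FOS or JUN proteins read the AP-1 element, pairs with ATF and CREB proteins read the ATF/CRE element, and pairs of an ATF protein with a C/EBP protein read a composite with one arm from each. The composite is best known from genes of amino acid supply and the integrated stress response, where ATF4 acts through it. AP-1 elements are frequent in enhancers, the control regions that act on promoters from a distance.

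In each 127-base peak 3 elements were searched as exact letters on both strands: the AP-1 core TGAGTCA, the ATF/CRE core TGACGTCA and the C/EBP-ATF composite TGATGCAA. A match is a description of the letters and does not show which protein was bound. The following peaks, read from the plus strand of hg19 (GRCh37) and named for the nearest protein-coding TSS, carry the AP-1 or ATF/CRE core in capitals. They are shown because their tag counts were among those that were higher in damaged cells, and the ATF3 peak lies upstream of the gene of the precipitated protein itself.
ATF3, chr1:212732358-212732484: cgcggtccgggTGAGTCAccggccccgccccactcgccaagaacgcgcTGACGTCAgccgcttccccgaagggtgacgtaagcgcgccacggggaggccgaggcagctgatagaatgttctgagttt
AMHR2, chr12:53822170-53822296: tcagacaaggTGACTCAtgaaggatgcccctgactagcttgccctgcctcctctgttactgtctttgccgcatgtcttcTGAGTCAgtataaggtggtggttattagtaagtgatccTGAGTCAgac
DDIT4, chr10:74052039-74052165: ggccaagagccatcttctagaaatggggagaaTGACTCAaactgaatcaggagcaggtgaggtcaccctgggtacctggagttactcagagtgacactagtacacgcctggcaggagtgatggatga
EIF2AK3, chr2:88899761-88899887: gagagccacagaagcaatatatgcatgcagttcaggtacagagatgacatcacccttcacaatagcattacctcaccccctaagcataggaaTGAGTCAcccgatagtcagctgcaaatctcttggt
ELF3, chr1:202004049-202004175: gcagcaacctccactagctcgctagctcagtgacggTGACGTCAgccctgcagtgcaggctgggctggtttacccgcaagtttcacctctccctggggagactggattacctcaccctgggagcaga

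The next peaks carry the composite in capitals, alone or, at HSPA5, beside an AP-1 core that is also in capitals. They are shown because such sites included the strongest peaks of undamaged cells and those with the lowest ratios after CPT.
MDM4, chr1:204476218-204476344: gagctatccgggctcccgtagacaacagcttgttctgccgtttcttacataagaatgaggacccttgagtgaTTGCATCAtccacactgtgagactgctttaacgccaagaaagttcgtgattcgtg
HSPA5, chr9:128005693-128005819: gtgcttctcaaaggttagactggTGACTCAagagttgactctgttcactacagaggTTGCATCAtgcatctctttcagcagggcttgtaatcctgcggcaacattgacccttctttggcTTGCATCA
CDKN1A, chr6:36634963-36635089: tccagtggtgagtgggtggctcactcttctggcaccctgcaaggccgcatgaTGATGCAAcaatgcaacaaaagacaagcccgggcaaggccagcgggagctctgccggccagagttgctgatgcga
SLC7A5, chr16:87887298-87887424: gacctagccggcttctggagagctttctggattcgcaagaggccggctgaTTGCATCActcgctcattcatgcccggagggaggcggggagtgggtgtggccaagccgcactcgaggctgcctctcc
SESN2, chr1:28576047-28576173: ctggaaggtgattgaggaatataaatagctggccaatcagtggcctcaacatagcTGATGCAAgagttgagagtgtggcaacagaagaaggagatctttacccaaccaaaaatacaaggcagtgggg
TRIB3, chr20:352565-352691: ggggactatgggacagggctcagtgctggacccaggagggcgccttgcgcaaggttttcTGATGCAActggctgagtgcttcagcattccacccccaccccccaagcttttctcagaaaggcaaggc
TGFA, chr2:70751143-70751269: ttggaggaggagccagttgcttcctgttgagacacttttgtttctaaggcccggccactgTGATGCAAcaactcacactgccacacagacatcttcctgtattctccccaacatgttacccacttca
MMP17, chr12:132345393-132345519: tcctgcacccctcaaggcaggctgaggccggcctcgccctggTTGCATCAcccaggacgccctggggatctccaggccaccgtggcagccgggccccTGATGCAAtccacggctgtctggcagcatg

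The AP-1 core was found in 6885 of the 14444 distal shared sites, or 47.7% (Wilson interval 46.9 to 48.5). The composite was found in 1300 sites, or 9.0% (8.54 to 9.48), and the ATF/CRE core in 132 sites, or 0.914% (0.771 to 1.08). In windows of the same width 1000 bp to either side of the same sites, the shares were 2.23%, 0.308% and 0.0520%. AP-1 cores were thus found 21.4 times as often in the peaks as beside them and composites 29.2 times as often. Over all 11841092 non-overlapping windows of 127 bp in the same distance band, 1.94% held an AP-1 core, 0.42% a composite and 0.045% an ATF/CRE core. Taken by their letters, 6859 sites held an AP-1 core without an ATF/CRE core, 106 the reverse, 26 both, and 7453 neither. Of the last, 1121 held the composite, which left 6332 sites with none of the 3 elements.

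The composite set the distal shared sites apart from the distal sites found in only 1 of the conditions. It was present in 46.5% of the 3391 distal sites found only in undamaged cells (44.8 to 48.2) and in 1.24% of the 26654 distal sites found only after CPT (1.12 to 1.38). The shared sites lay 37.5 percentage points below the former (Newcombe interval of the difference -39.2 to -35.7) and 7.76 points above the latter (7.28 to 8.25). The AP-1 core had the opposite order, with 5.25% of the sites found only in undamaged cells and 45.9% of those found only after CPT. The shared sites exceeded the CPT-only sites in AP-1 cores by 1.81 points (0.798 to 2.82), a difference that changed sign to -4.63 points (-6.58 to -2.68) when peaks of a score of at least 20 were required in both lists and to -0.725 points (-1.57 to 0.115) when 1 mismatch was allowed in the core. Sites found only in undamaged cells were mostly weak peaks, 2194 of 3391 with a score of 9 to 11, so the composite was also compared at like scores. The score is the tag number that the caller gave the peak, with at most 1 tag considered per position. At ATF3-Ctrl scores of 9 to 11, 5.48% of 4307 shared sites and 44.7% of 2194 sites found only in undamaged cells held the composite. At scores of 20 to 29 the shares were 9.94% of 2515 and 28.2% of 117, a difference of -18.3 points (-27.1 to -10.8). At scores of 30 and above they were 16.8% of 2060 and 22% of 41, and the interval of that difference included 0 (-19.9 to 4.98).

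Promoter sites had their centre within 2 kb of a TSS, exons included, and likewise an ATF3-CPT and no ATF3-KO peak. Taken over all scores, they differed in all 3 elements. Of 5937 promoter shared sites, 14.8% held an AP-1 core, which was 32.9 points below the distal shared sites (interval of the difference 31.7 to 34.1). The ATF/CRE core was more frequent at promoters, at 5.59%, and the distal sites lay 4.68 points below it (-5.31 to -4.10). The composite was present in 3.40% of promoter sites, 5.60 points less than in distal ones (4.93 to 6.24). The KLF and Sp1 box GGGCGG was found in 6.31% of distal and 38.4% of promoter shared sites. The median GC content was 49.6% in the distal peaks, 64.6% in the promoter peaks and 41.7% in all windows of the band.

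**Figure D1:**
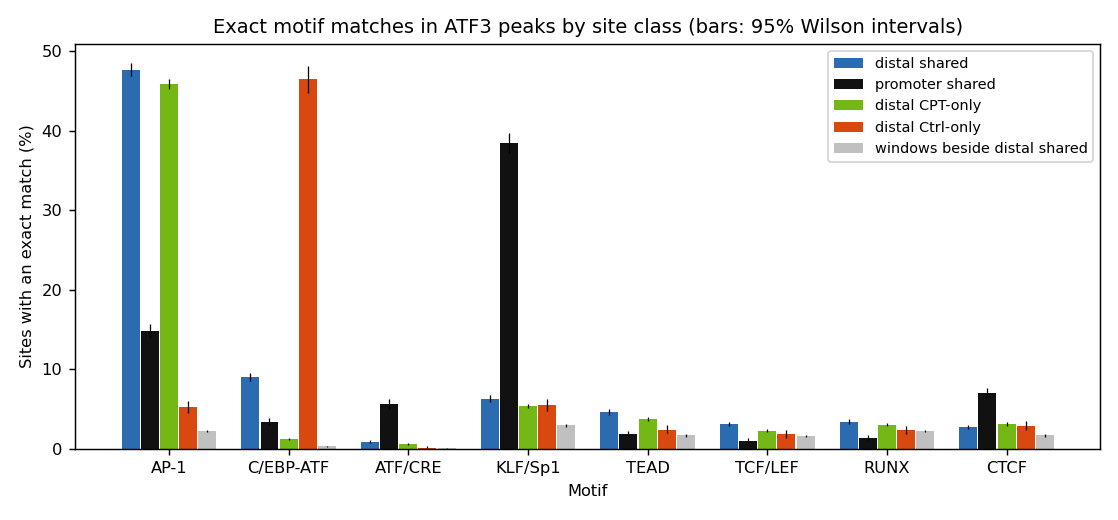
Share of sites (%, y axis) with an exact match to each of 8 motifs (x axis) in distal shared, promoter shared, distal CPT-only and distal Ctrl-only sites and in windows 1000 bp beside the distal shared sites; bars show 95% Wilson intervals. The AP-1 core stood at 47.7% of distal shared sites and the C/EBP-ATF composite at 46.5% of distal Ctrl-only sites.

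Other motifs differed less from the windows beside the sites. The word ACATTCC, read by the TEAD partners of YAP, was found in 4.59% of distal shared sites against 1.68% beside them. The ETS word CAGGAAGT was found in 2.35% against 0.765%, the TCF/LEF word ATCAAAG in 3.07% against 1.60%, and the RUNX word TGTGGTT in 3.41% against 2.24%. The GATA word AGATAA was less frequent in the sites (4.78%) than beside them (7.45%). The NF-kB motif was found in 6 sites, or 0.042%, the same share as in the windows beside them.

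The bases around the AP-1 core were not those of the band as a whole. Of 7757 cores in distal shared sites, 12.4% read ATGAGTCAT, against 5.62% of the 233317 cores in all windows of the band. GTGAGTCAT showed a like ratio of shares, 2.22. CTGAGTCAG, the most frequent form in the band at 9.14% of cores, made up 4.90% in the sites, and TTGAGTCAA made up 0.309% against 4.92%. For the composite, 63.1% of the 1329 matches were followed by T (TGATGCAAT), 19.2% by C and 5.34% by A. The median ratio of ATF3-CPT to ATF3-Ctrl was 0.782 at the 825 sites with TGATGCAAT and 1.02 at the 70 sites with TGATGCAAA.

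The elements lay near the peak centres. The nearest composite was a median of 9.5 bp from the ATF3-Ctrl centre, and 77.4% of the 1300 composite sites had it within 20 bp. The nearest AP-1 core was a median of 17 bp away (6885 sites), closer than the TEAD match at 25 bp (663 sites). From the ATF3-CPT centres the AP-1 core lay at a median of 14 bp, within 20 bp at 66.6% of its sites, and the composite within 20 bp at 69.2%. The centres that the peak caller placed in the 2 conditions were a median of 16 bp apart.

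**Figure D2:**
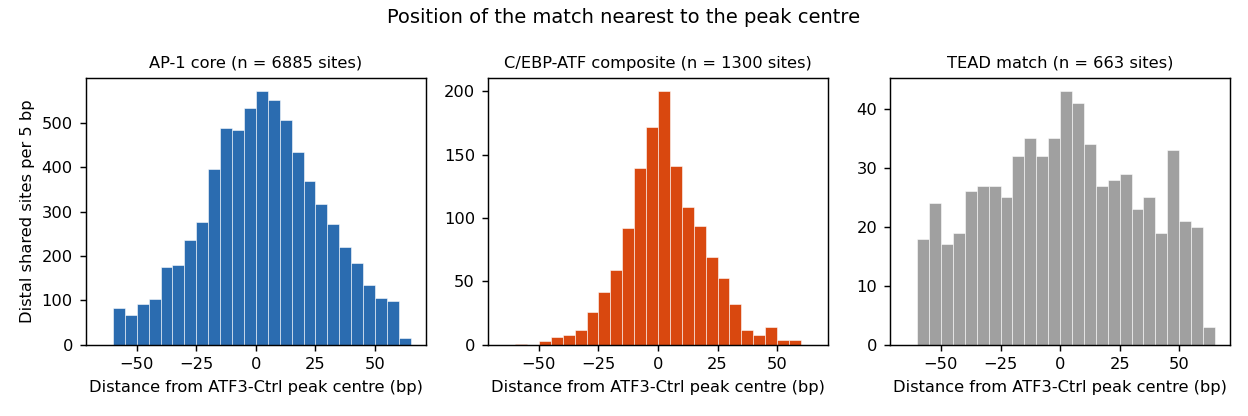
Number of distal shared sites per 5 bp (y axis) against the distance in bp from the ATF3-Ctrl peak centre to the nearest AP-1 core, C/EBP-ATF composite or TEAD match (x axis). The composite was the most tightly centred of the 3 drawn, with a median distance of 9.5 bp.

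Most distal shared sites were modest peaks in undamaged cells. Their ATF3-Ctrl score had a median of 15 (quartiles 11 and 22, range 9 to 206), against a caller's threshold of 9 tags. Their normalized tag count, the tags in the peak per 10000000 tags of the library, had a median of 11.6 in ATF3-Ctrl (quartiles 8.5 and 17.8, range 5.4 to 349.1). After CPT the median was 25.2 (14.2 and 40.8, range 4.5 to 387.5). The ratio of the CPT to the Ctrl count had a median of 2.07 (1.30 and 2.85, range 0.255 to 10.7). It exceeded 1 at 12271 sites, or 85.0% (80.9% of all 26845 ATF3-Ctrl peaks with an ATF3-CPT peak), and 2 at 7597 sites, or 52.6% (43.9% of all such peaks). It was below 0.5 at 207 sites, or 1.43% (1.96% of all). The choice of sites used both lists, and a site had to keep a peak after CPT, so these ratios are a description and no weight is put on their difference from the shares over all peaks. Peaks held 12.76% of the ATF3-CPT tags but 5.6% of the ATF3-Ctrl tags, and the counts were scaled to all tags of the library, so the part of this gap in the ratios was not tested. Promoter shared sites had a median ratio of 1.44.

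The ratio differed with the DNA element. At the 6812 sites with an AP-1 or ATF/CRE core and no composite, the median normalized tag count was 11.6 in ATF3-Ctrl and 31.7 in ATF3-CPT, and the median ratio was 2.48 (quartiles 1.89 and 3.16). At the 1121 sites with the composite only, the medians were 13.9 and 10.4, and the median ratio was 0.768 (0.601 and 1.01). At the 179 sites with the composite and one of the other cores the medians were 23.9 and 26.5, with a median ratio of 1.13. At the 6332 sites with none of the 3 they were 10.0 and 20.7, with a median ratio of 1.80. The ratio was above 1 at 97.7% of the first group, 25.9% of the composite-only sites, 63.7% of the mixed sites and 82.3% of the sites with none. Sites with 2 or more AP-1 cores (832) had a median ratio of 2.81 and those with 1 core (6053) 2.38. The 26 sites with both an AP-1 and an ATF/CRE core had a median ratio of 3.24.

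**Figure D3:**
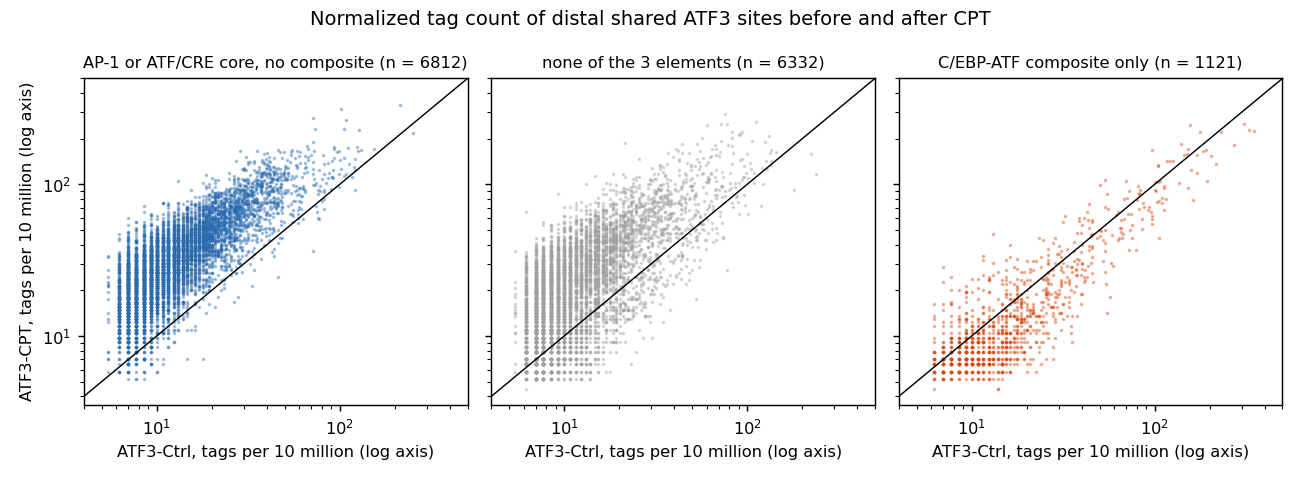
Normalized tag count (tags per 10000000 tags, log axes) of distal shared sites in ATF3-Ctrl (x axis) and ATF3-CPT (y axis), in 3 panels by DNA element; each point is a site and the line marks equal counts. Sites with an AP-1 or ATF/CRE core lie mostly above the line, 97.7% with a ratio above 1, and composite-only sites mostly below it, 25.9% with a ratio above 1.

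Of the 207 sites whose ratio was below 0.5, 137 (66.2%) held the composite and 3 (1.45%) an AP-1 core. Of the 7597 sites above 2-fold, 40 (0.527%) held the composite and 4755 (62.6%) an AP-1 core. Composite sites at promoters had a like median ratio, 0.734 at 202 sites against 1.47 at the other 5735. In ATF3-KO cells the composite was found in 6 of 2098 peaks, or 0.286% (0.131 to 0.623), and in none of the 434 ATF3-KO peaks in the same distance band and outside exons (Wilson upper bound 0.877%), although those peaks are 199 bases wide. Distal ATF3-KO peaks held an AP-1 core in 7.60% (5.47 to 10.5).

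**Figure D4:**
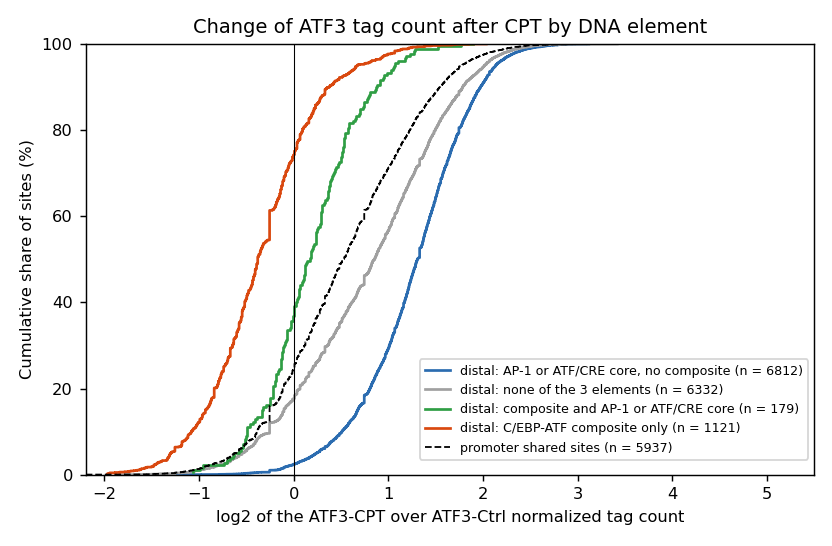
Cumulative share of sites (%, y axis) against the log2 ratio of ATF3-CPT to ATF3-Ctrl normalized tag count (x axis) for 4 groups of distal shared sites by DNA element and for promoter shared sites (dashed). The composite-only curve lies farthest to the left (median ratio 0.768) and the AP-1 or ATF/CRE curve farthest to the right (2.48).

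The separation by element held across basal levels. Among sites with an ATF3-Ctrl normalized tag count of 12 to 20, the median ratio was 2.51 at 1893 sites with an AP-1 or ATF/CRE core, 1.89 at 1472 sites with none of the 3 and 0.641 at 326 composite-only sites. At counts of 40 to 100 the medians were 1.84 (283 sites), 1.35 (259) and 0.817 (90), and from 100 upward 1.27 (22), 1.08 (23) and 0.867 (41). At the lowest counts, 5 to 8, composite-only sites had a median of 1.01 (154 sites). A site with so few tags could hardly be lower after CPT and still be listed, since the lowest ATF3-CPT count of any distal shared site was 4.5. With the sites ordered by basal count into 10 classes of equal size, the composite was found in 4.71% of the weakest class (3.73 to 5.92) and 18.9% of the strongest (17.0 to 21.0). The AP-1 core was found in 42.6% (40.1 to 45.2) and 48.7% (46.1 to 51.3) of the same classes. Over all distal shared sites the 2 counts were related with Spearman's rho of 0.644 across sites, which share their libraries and are not independent replicates.

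**Figure D5:**
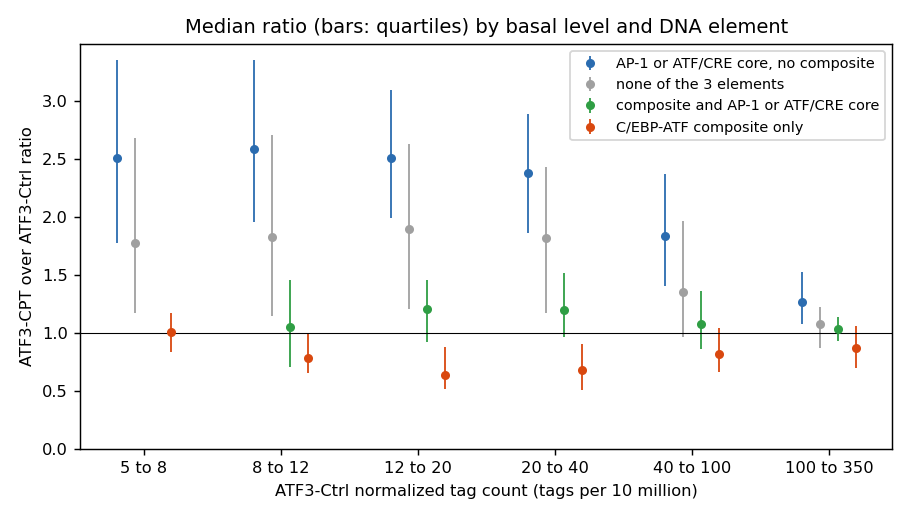
Median ratio of ATF3-CPT to ATF3-Ctrl normalized tag count (y axis; bars are quartiles) by ATF3-Ctrl normalized tag count in tags per 10000000 tags (x axis) and DNA element, drawn where a group held at least 20 sites. Composite-only sites had the lowest median in every class, from 1.01 at 5 to 8 down to 0.641 at 12 to 20.

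The 10 strongest distal sites of undamaged cells showed the same elements. Of these 10, 9 held the composite and the ratio was above 1 at 3, against 9.0% and 85.0% of all distal shared sites. The 10 sites were picked by their ATF3-Ctrl score, and all 111 distal shared sites with ATF3-Ctrl counts from 100 upward had a median ratio of 1.03. The strongest lay 13302 bp upstream of the TSS of KLHDC4, at 80 bp from the start of a long non-coding RNA gene, with a normalized tag count of 349.1 in ATF3-Ctrl and 224.5 in ATF3-CPT (ratio 0.64, exact binomial interval 0.56 to 0.74). Next came a site 9226 bp upstream of MDM4, a binding partner and inhibitor of p53, with 326.7 and 229.7 (0.70, 0.61 to 0.81). Sites at CTBP2, TEX43 and GLRX2 held the composite alone and had ratios of 0.82, 0.67 and 0.96. Those at FGFRL1, HES1 and HSPA5 held an AP-1 core as well and had ratios of 1.32, 1.04 and 1.08. HSPA5 encodes the chaperone BiP of the endoplasmic reticulum, and its site, 2095 bp upstream of the TSS, held 2 composites and 1 AP-1 core, with counts of 238.7 and 256.8. The exception was MAPRE3, with 1 AP-1 core, no composite and a ratio of 0.87 (0.74 to 1.01).

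In the gene lists that follow, the site given for a gene is the one with its highest ATF3-Ctrl score, and its ratio need not be that of the gene's other sites. Of all 20090 protein-coding genes, 6964 (34.7%) were the nearest gene of at least 1 distal shared site. Of the 18 genes of the integrated stress response 10 had one, and their 19 sites were of both kinds. The composite was in 4 (21.1%) and an AP-1 core in 9 (47.4%), against 9.0% and 47.7% of all distal shared sites. The ratio was above 1 at 13 of the 19, against 85.0% of all distal shared sites. SLC7A5, a subunit of an amino acid transporter, had an intronic composite site with 169.9 in ATF3-Ctrl and 157.2 in ATF3-CPT (ratio 0.93, 0.77 to 1.12). SESN2, a stress-induced regulator of mTORC1, had one 9919 bp upstream with 82.6 and 69.2 (0.84, 0.63 to 1.11). TRIB3, a pseudokinase induced by ATF4, had one 8776 bp upstream with 52.5 and 31.1 (0.59, 0.40 to 0.87). Of these 3, only the interval at TRIB3 lay below 1. The AP-1 sites of the same list differed among themselves. An intronic site of EIF2AK3, which encodes the stress kinase PERK, had 108.9 and 265.9 (2.44, 2.01 to 2.98), and a site 18424 bp downstream of the TSS of DDIT4, an inhibitor of mTORC1, had 71.1 and 275.0 (3.87, 3.08 to 4.90). AP-1 sites at EIF2AK4, the stress kinase GCN2, with 16.2 and 16.2 (1.00, 0.54 to 1.87), and at VLDLR, with 9.3 and 8.4 (0.91, 0.38 to 2.18), had ratios whose intervals included 1. SLC7A5, SESN2 and TRIB3 each had a second site without the composite, with ratios of 1.73, 2.09 and 1.74.

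Some AP-1 and ATF genes were themselves nearest to a distal shared site. Of 15 AP-1 family genes 8 had at least 1, with a median ratio of 2.46 over 20 sites, and of 20 ATF, CREB and C/EBP genes 8 (40%) had one, a share near the 34.7% of all genes, with a median ratio of 2.30 over 21 sites. The site 6255 bp upstream of the ATF3 TSS, 284 bp from the start of a non-coding gene and with an AP-1 and an ATF/CRE core, had 39.4 in ATF3-Ctrl and 146.2 in ATF3-CPT (3.71, 2.73 to 5.13). FOSB, a FOS family member, had 71.8 and 191.5 (2.67, 2.11 to 3.40) at an AP-1 site inside the neighbouring gene ERCC1. FOSL1 had 17.0 and 86.7 (5.10, 3.23 to 8.41) 2911 bp upstream, at a site with a TEAD match and none of the 3 elements. Composite sites lay on the other side: FOSL2 had 96.5 and 55.0 (0.57, 0.43 to 0.76) 2484 bp upstream, and CREB3L1, a membrane-anchored bZIP factor, had 105.8 and 44 (0.42, 0.31 to 0.56) at a peak 2 bp from the start of a gene that is not protein-coding. At both FOSL2 and CREB3L1 the ratio was above 1 at the other 3 of 4 sites.

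The 10 highest and 10 lowest ratios were ranked among sites with at least 20 tags in the lower or 40 in the higher list. A site could therefore enter through its higher list alone, and the elements of these sites are given as a description. The 10 highest ratios lay between 7.69 and 10.7, with 8 to 28 tags in ATF3-Ctrl. None of these 10 sites held the composite, against 9.0% of all distal shared sites. SH3BP4 had 6.2 in ATF3-Ctrl and 66 in ATF3-CPT (10.7, 5.22 to 25.4), and SEPTIN9, a cytoskeletal septin, had 21.6 and 188.3 (8.71, 5.90 to 13.3), both without any of the 3 elements. AMHR2 had 13.1 and 105.5 (8.03, 4.86 to 14.1) at a peak with 3 AP-1 cores. Of the 10, 5 held an AP-1 core and 5 none of the 3 elements, near the 47.7% and 43.8% of all distal shared sites. The 10 lowest ratios lay between 0.25 and 0.36. Of these 10 sites, 7 held the composite and none an AP-1 core, against 9.0% and 47.7% of all distal shared sites. ELMO1 had 35.5 and 9.1 (0.25, 0.13 to 0.47), KLF13 34.8 and 10.4 (0.30, 0.16 to 0.54), MMP17 57.2 and 18.1 (0.32, 0.20 to 0.50) at a peak with 2 composites, and TGFA, an EGFR ligand, 30.9 and 11 (0.36, 0.19 to 0.64). ABHD11, TOM1L2 and ERMARD were the 3 without the composite.

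Distal shared sites were spread over the whole band. Of the 14444 sites, 23.7% lay 2 to 10 kb from the nearest TSS, 53.4% at 10 to 50 kb and 22.9% at 50 to 100 kb, against 19.4%, 52.0% and 28.6% of all windows of the band. Introns of protein-coding genes held 51.6% (50.8 to 52.4), against 54.3% of the windows. A TSS of another gene type lay within 2 kb of 10.4% of the sites. Neither the distance nor the intron separated the ratios, with medians of 2.07, 2.06 and 2.07 in the 3 distance classes, 2.10 in introns and 2.03 between genes. Just inside the inner limit lay sites at ARMH3 (2001 bp) and DST (2003 bp), with ratios of 1.91 and 2.88, and just outside it sites at SPINT1 (1998 bp) and NINJ2 (2000 bp), with 2.64 and 2.61. At the outer limit, BAZ2B (99891 bp) and ZNF469 (99909 bp) had 2.98 and 2.30, and TMTC3 (100016 bp) and ZMAT3 (100019 bp), just beyond it, 4.13 and 1.88.

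There were 9.61 distal shared sites per Mb of the band, from 2.21 on chromosome X to 16.3 on chromosome 17. Among autosomes the lowest density was 6.83 per Mb, on chromosome 13. The composite share was 13.7% of the 175 sites on X and 6.21 to 12.6% on the autosomes. Sites also came in runs. With gaps of at most 0.0125 Mb, 817 runs held 3 or more sites and together 2989 sites, or 20.7%. The run nearest to SOCS3, a feedback inhibitor of cytokine signalling, had 12 sites in 44.2 kb, 6 with an AP-1 core. The 12 sites had median counts of 11.6 in ATF3-Ctrl and 27.85 in ATF3-CPT. A run of 12 sites between SULT2A1 and BSPH1 and another of 12 between IZUMO2 and ZNF473 had no AP-1 core. The ratio was above 1 at all 12 sites of each of these 3 runs and at all 10 of the run at GADD45B, a growth arrest gene. It was above 1 at 7 of 8 sites of the run at ELF3, an epithelial ETS factor. Other runs of 8 sites had a ratio above 1 at 8 (BLID), 7 (SMAD3, PRKCE, and FGL1 with MTUS1) and 6 (STK39) sites. Of all distal shared sites, 85.0% had a ratio above 1.

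Few distal shared sites coincided with a p53-CPT peak. A p53-CPT peak overlapped 182 of them, or 1.26% (1.09 to 1.46), against 1.72% of all ATF3-Ctrl peaks. A p53-KO peak overlapped 40 sites, or 0.277% (0.724% of all ATF3-Ctrl peaks), and 30 of the 182 sites overlapped both. The share overlapping p53-CPT was 0.341 points above that of distal CPT-only sites (0.132 to 0.564) and not distinguishable from that of promoter shared sites at this number of sites (difference -0.256, -0.639 to 0.0860). The p53 motif, searched with at most 3 mismatches, was found in 32 of the 182 sites (17.6%) and in 331 of the other 14262 (2.32%). It was found in 2.95% of the windows beside the sites, so that it was no more frequent in the distal shared sites as a whole. The p53-CPT library held 3169743 tags, fewer than the ATF3 libraries, and p53 binding below its threshold of 7 tags was not detectable. Its list had 9211 peaks, and the list from p53-KO cells had 7879 peaks from 1984941 tags. A p53-CPT peak alone therefore does not show that p53 was bound.

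Sites with the highest p53-CPT scores were modest ATF3 peaks. Of the 10, 9 had a ratio above 1, against 85.0% of all distal shared sites. The ATF3-Ctrl counts of the 10 were between 6.2 and 21.6. All 182 sites with a p53-CPT peak had a median ATF3-Ctrl count of 13.9, against 11.6 at the other 14262. KLK4 had 21.6 in ATF3-Ctrl and 107.4 in ATF3-CPT (4.97, 3.31 to 7.70) with an AP-1 core. A site 53 bp from the start of the host gene of miR-34a, a p53-induced microRNA, nearest among protein-coding genes to H6PD, had 7.7 and 6.5 (0.84, 0.31 to 2.24).

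CDKN1A, which encodes the cell cycle inhibitor p21, had the site with the highest ATF3-Ctrl count among the p53 targets examined. Its site 9211 bp upstream of the TSS held the composite printed above and a p53 motif, with 190.8 in ATF3-Ctrl and 168.9 in ATF3-CPT (0.89, 0.74 to 1.06) and a p53-CPT score of 36. CDKN1A had 4 distal shared sites, 3 of them with the composite. Of 30 p53 target genes 15 were nearest to a distal shared site, against 34.7% of all protein-coding genes. Over the 47 sites of these 15 genes, the median ratio was 1.52, against 2.07 over all distal shared sites. The composite was in 9 (19.1%) and an AP-1 core in 15 (31.9%), against 9.0% and 47.7% of all distal shared sites. The sites were unevenly spread over the genes, so these pooled values need not hold for each gene. PMAIP1 had 12 of the 47 sites, with a median ratio of 1.43, and CDKN1A had 3 of the 9 composite sites. SFN, encoding 14-3-3 sigma, had 57.2 and 149.4 (2.61, 2.00 to 3.45), BBC3, encoding the death factor PUMA, had 105.0 and 126.2 (1.20, 0.96 to 1.51), and MDM2 had 7.7 and 9.1 (1.17, 0.48 to 2.95). BBC3 had 4 sites in all, each with a ratio above 1 (median 2.64, range 1.16 to 4.71), and its highest ATF3-CPT count, 245.2, exceeded that of the CDKN1A site.

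Of the 6964 genes nearest to a distal shared site, 3693 had 1 site and 62 had 10 or more. A nearest TSS does not show which gene a site acts on. PALLD, which encodes an actin-binding protein, had 20 sites, all in introns, with a median ratio of 2.24. SMAD3, the signal transducer of TGF-beta receptors, had 18 sites with counts from 9.3 to 120.5 in ATF3-Ctrl and from 23.9 to 129.4 in ATF3-CPT, and its strongest site in ATF3-Ctrl had a ratio of 1.07 (0.87 to 1.33). TCF7L2, the nuclear effector of WNT signalling, had 16 sites, the strongest with 37.8 and 144.3 (3.81, 2.79 to 5.31).

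Genes of epithelial adhesion had sites most often among the lists examined, which were chosen with earlier results of these data known. Of 26 laminin-332, integrin, keratin and junction genes, 24 (92.3%) were nearest to a distal shared site, against 34.7% of all protein-coding genes. They had 97 sites with a median ratio of 2.27, and 9 of these sites (9.28%) held the composite, against 9.0% of all distal shared sites. CDH1, encoding E-cadherin, had 105.0 and 231.0 (2.20, 1.80 to 2.70) at an intronic AP-1 site, LAMA3 24.7 and 93.8 (3.80, 2.57 to 5.75), PLAU, encoding urokinase, 37.8 and 97.7 (2.58, 1.86 to 3.64), and ITGA2 40.9 and 60.2 (1.47, 1.04 to 2.10) at a composite site. Feedback regulators of MAPK signalling and EGFR ligands had sites at 20 of 24 genes. Of their 82 sites, 12 (14.6%) held the composite, against 9.0% of all distal shared sites. ERRFI1, an inhibitor of EGFR, had 14 sites, none with the composite and all with a ratio above 1. SPRY4, an inhibitor of receptor signalling, had 5 sites, 4 with a ratio above 1 (median 1.54), and the exception, its highest in ATF3-Ctrl, held the composite with 26.3 and 9.7 (0.37, 0.19 to 0.70). EGFR had 50.2 and 98.3 (1.96, 1.46 to 2.66) in an intron.

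TGF-beta pathway and ID genes had sites at 19 of 24 genes, where 34.7% of all protein-coding genes had one. Of their 78 sites, 2 (2.56%) held the composite, against 9.0% of all distal shared sites. ID2, an inhibitor of basic helix-loop-helix factors, had 173.0 and 246.5 (1.42, 1.20 to 1.69) at a site with the composite and an AP-1 core. TGFBR2 had 101.2 and 64.0 (0.63, 0.48 to 0.83) at a site with none of the 3 elements, but its other 10 sites had ratios above 1 and the median over its 11 sites was 1.87. YAP and TEAD genes had sites at 13 of 19. Their 46 sites had a median ratio of 2.05, against 2.07 over all distal shared sites, and 39 had a ratio above 1. Their strongest sites differed, with CCN1 at 20.1 and 88.6 (4.41, 2.89 to 7.0) and CCN2 at 16.2 and 44.6 (2.75, 1.67 to 4.72). TEAD1 had 61.0 and 47.9 (0.78, 0.56 to 1.09) and ANKRD1 60.2 and 59.5 (0.99, 0.72 to 1.35). KLF genes had sites at 10 of 17, WNT and colon stem genes at 13 of 22, immediate early genes at 9 of 13 and NF-kB and inflammatory genes at 14 of 23, with median ratios of 2.06, 1.94, 2.23 and 1.81. EPHB2, a WNT target receptor, had 31.7 and 139.7 (4.41, 3.15 to 6.32) at an intronic peak with 2 AP-1 cores, and KLF4 61.8 and 62.8 (1.02, 0.75 to 1.38) at a composite site, the lowest ratio of its 4 sites (median 2.62). Of 18 genes that the study named for its ChIP-seq data, 14 had a distal shared site, and HYI had 93.5 and 222.6 (2.38, 1.93 to 2.95). None of 18 blood lineage genes, which mark cells other than colon epithelium, was nearest to one, against 34.7% of all protein-coding genes. This list too was chosen with earlier results of these data known.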

How the data were processed

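ATF3 and p53 ChIP-seq libraries of HCT116 cells were used as 5 peak lists. Reads were mapped by the authors to hg19 (BWA 0.6.1), and HOMER 4.1 findPeaks was run on 1 library at a time with a false discovery rate of 0.001, 4-fold over the local 10 kb and a local p of 1e-04, and the command in the headers names no input control. The normalized tag count is a signal that the authors scaled to a library of 10000000 tags. The deposited score is an unscaled number of tags. It was not counted over the same tags as the normalized tag count. In ATF3-Ctrl its lowest value at distal shared sites was 9, while the lowest count recovered from normalized values was 7 tags. Other deposited columns, not used here, hold a fraction of tags near the centre, a local fold with its p-value, and a clonal fold. The ATF3-Ctrl, ATF3-CPT and ATF3-KO libraries held 12947516, 15457013 and 12820520 tags, and 1 tag was worth 0.772, 0.647 and 0.780 normalized counts. The lists hold only peaks with scores of at least 9, 9 and 11, and weaker binding was not detectable.

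Basic protein-coding transcripts of GENCODE release 44, lifted to GRCh37, gave TSSs, exons and gene bodies. Peaks shared at least 1 bp, and the overlapping ATF3-CPT peak with the highest score was used. Whole tags were recovered from normalized counts for the exact Poisson and conditional binomial intervals; shares have Wilson and their differences Newcombe intervals, at 95%. Named sites were the 10 with the highest ATF3-Ctrl score, the 10 highest and 10 lowest ratios (at least 20 tags in the lower or 40 in the higher list), the top site of each gene of 14 lists, the 10 with the highest p53-CPT score, the genes with most sites, the densest runs and the sites nearest each limit, and not all of them are reported. The members and lists were chosen with earlier results of these data known, and the results on the composite were added after its values were seen. Scripts passed 9 of 9 checks on simulated data (Python 3.11.15, scipy 1.17.1, pandas 2.3.3).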

Additional observations from a re-analysis of the deposited data

How the results depend on the processing

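No paired analysis was possible because there was 1 library per condition and the labels carry no replicate numbers. Of 88 values under alternatives, 56 stayed within the interval of the main value (for the number of sites, within 1.5 times it), 30 moved and 2 changed sign; the cause was not tested.

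With a score of at least 20 in both lists, the number of sites was 4364, the AP-1 share 53.4%, the ATF/CRE share 1.24%, the share with a ratio below 0.5 0.665%, the p53-CPT share 1.86%, the AP-1 difference from CPT-only sites -4.63 points, the composite share 10.5% and the composite median ratio 0.908. With an overlap of 50% of the shorter peak, the AP-1 share was 49.2%, its difference from CPT-only sites 3.37 points and the composite difference from Ctrl-only sites -29.4 points. With the TSSs of genes of every type, the AP-1 share was 48.8%, its difference from promoter sites 27.6 points, the share with a ratio below 0.5 1.66%, the intron share 48.5% and the composite share 9.58%. From 10 kb, the intron share was 49.6%. In 200 bp around the centre, the AP-1 share was 51.3% and its differences 35.2 points from promoter and 3.32 from CPT-only sites. With 1 mismatch allowed, the AP-1 share was 77.4%, its differences 36.7 and -0.725 points, the ATF/CRE share 13.3%, the composite share 28.2% and its difference from Ctrl-only sites -40.1 points. With scores divided by library size, the median ratio was 1.90, 45.5% of sites were above 2-fold and 1.07% below 0.5. At a fold of 1.5 these shares were 69.0% and 4.62%. Without p53-CPT peaks that overlap a p53-KO peak, the p53 share was 1.02%. The ratio did not move with the choice of CPT peak by nearest centre, and no value moved when ATF3-KO peaks within 1 kb were removed.

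With 1 library per condition, no spread between cultures was known, and the intervals hold only for these libraries. A weak peak of 9 tags has a wide counting interval, and the sites had to be listed in both conditions, which bounds low ratios from below.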
